A study of Mus musculus with 12 samples.

Results

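CCAAT/enhancer-binding proteins (C/EBPs) were followed through the RNA-seq data as 5 genes chosen by name, Cebpa, Cebpb, Cebpd, Cebpg and Cebpz, out of the 55401 genes in the deposited tables. Adult neural stem/progenitor cells (aNSPCs) from the forebrain of C57BL/6 mice aged 8 to 10 weeks were grown as dividing neurospheres or placed under differentiation conditions with 1 µM retinoic acid and 5 µM forskolin, an activator of adenylyl cyclase. In each condition, cells without NAD+ (Ctrl) were compared with cells given 1 mM NAD+. The 4 groups held 3 samples each, 12 in all, and were proliferating Ctrl, proliferating NAD+, differentiation Ctrl and differentiation NAD+. The sample titles name NAD+ in 6 samples, whereas a treatment field of the labels calls all 12 untreated, and the titles were followed here. The study calls the samples of a group biological repeats, without saying whether they came from separate mice or separate cultures, so the p-values measure the spread between these samples.

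C/EBPs bind DNA as dimers through a basic leucine zipper (bZIP) at the carboxyl end and activate genes through the amino end. C/EBPα is best known for driving adipocyte, hepatocyte and granulocyte differentiation and stopping cell division, while C/EBPβ and C/EBPδ are the family members that cytokines and cAMP induce, in astrocytes as well as in the liver. C/EBPγ lacks an activation domain and pairs with other bZIP proteins such as ATF4. Cebpz carries the family symbol but encodes a CCAAT-binding protein of the CBF/Mak21 family without a bZIP, related to yeast proteins of ribosome assembly.

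Expression was given as FPKM, which counts fragments against both the length of a transcript and the size of the library. All values are multiples of 0.01, so sample depth is unknown and counting errors cannot be had. Proliferating Ctrl replicate 1 stood apart, with FPKM values that summed to 363330 against 308828 to 314683 in the other 5 proliferating samples. Stem cell markers were present under proliferating conditions, where Nes lay between 47.8 and 97.0 FPKM and Sox2 between 206 and 252 FPKM, and Gfap, a marker of astrocytes, lay between 546 and 999 FPKM under differentiation conditions. Since these are bulk cultures, a change in the share of a cell type and a change in RNA per cell cannot be told apart.

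All 5 members were detected in all 12 samples, and each passed the filter for testing (mean FPKM of at least 0.1) in both conditions. Their genes lie on 4 chromosomes of mm10. Cebpa (ENSMUSG00000034957, chr7:35119293-35121928, plus strand), Cebpb (ENSMUSG00000056501, chr2:167688915-167690418, plus strand) and Cebpd (ENSMUSG00000071637, chr16:15887286-15891031, plus strand) are each annotated as 1 exon without introns. Cebpg (ENSMUSG00000056216, chr7:35046422-35056573, minus strand) has 3 exon blocks and lies 62719 bases from Cebpa, pointing away from it. Cebpz (ENSMUSG00000024081, chr17:78919006-78937066, minus strand) has 16 exon blocks.

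The promoters of Cebpa and Cebpb are shown because these paralogs were similar in level in proliferating cells and far apart under differentiation conditions. That of Cebpg, the chromosomal neighbor of Cebpa, is shown for comparison. RefSeq (GRCm38.p6) gave the 250 bases before the transcription start for 3 of the 5 members, not including Cebpd and Cebpz. Capitals mark the matches to 6 motifs searched on both strands, which were the cAMP response element TGACGTCA, its core TGACG (which lies within the full element), a STAT site TTCNNNGAA, a C/EBP site TTGCNNAA, a CCAAT box and TATAAA.
Cebpa, chr7:35119043-35119292, plus strand: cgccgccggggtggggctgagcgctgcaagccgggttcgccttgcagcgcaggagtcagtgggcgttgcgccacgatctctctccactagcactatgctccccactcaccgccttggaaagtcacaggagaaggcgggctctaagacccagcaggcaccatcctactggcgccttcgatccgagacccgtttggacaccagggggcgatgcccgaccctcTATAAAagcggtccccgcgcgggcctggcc
Cebpb, chr2:167688665-167688914, plus strand: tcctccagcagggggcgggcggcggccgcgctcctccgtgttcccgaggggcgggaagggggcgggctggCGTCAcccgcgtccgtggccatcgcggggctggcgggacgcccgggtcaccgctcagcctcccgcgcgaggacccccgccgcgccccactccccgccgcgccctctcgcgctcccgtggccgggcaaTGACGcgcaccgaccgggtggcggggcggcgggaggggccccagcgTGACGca
Cebpg, chr7:35056567-35056816, minus strand: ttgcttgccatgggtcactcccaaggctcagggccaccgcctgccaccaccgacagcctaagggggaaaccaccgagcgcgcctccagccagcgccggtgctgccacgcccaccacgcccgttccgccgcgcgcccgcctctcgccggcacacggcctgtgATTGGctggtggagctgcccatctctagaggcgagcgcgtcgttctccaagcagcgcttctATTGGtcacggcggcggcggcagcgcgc

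The Cebpb window held 3 TGACG cores, 2 forward and 1 reverse, at positions -180, -53 and -7 from the start, and none of the other motifs. Of 32817 mouse promoters of the same length, 17.7% held at least 1 such core and 0.689% held 3 or more. The Cebpa window held a TATAAA 30 bases before the start, which 12.4% of promoters hold in this window, and no TGACG. The Cebpg window held CCAAT on the reverse strand at 2 places, -89 and -28, and 10.1% of promoters held 2 or more. The full TGACGTCA (1.55% of promoters), the STAT letters (7.01%) and the C/EBP letters (9.57%) were in none of the 3 windows. These matches describe letters in the sequence and do not show binding. Retinoic acid and forskolin were given together, so their parts in the levels cannot be told apart, and a role of cAMP was not tested.

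**Figure D1:**
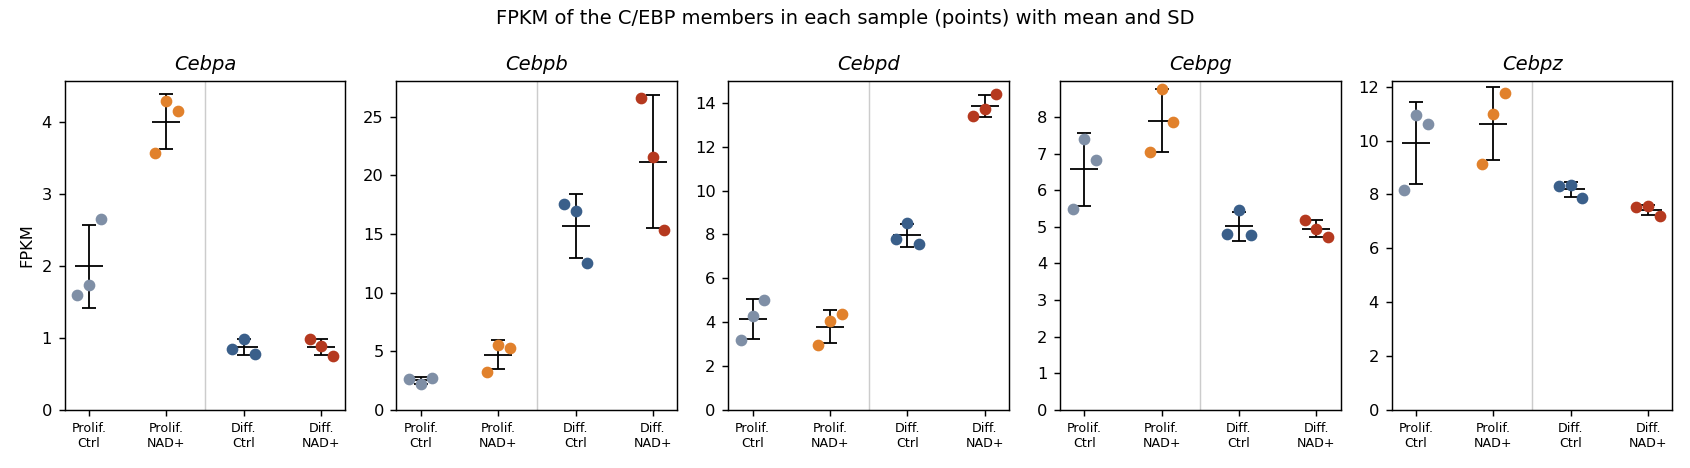
FPKM of the 5 C/EBP genes in each of the 12 samples, by group, with points for samples and lines for group means and SD (n = 3). Cebpa was highest in the proliferating NAD+ samples (3.57 to 4.29). Cebpd was highest in the differentiation NAD+ samples (13.42 to 14.43), and Cebpb had its highest mean there, though its values overlapped those of differentiation Ctrl.

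Levels per transcript length first showed which members dominated in each state. In proliferating Ctrl cells the FPKM order was Cebpz, Cebpg, Cebpd, Cebpb and Cebpa, with means of 9.90 ± 1.52, 6.57 ± 0.986, 4.15 ± 0.911, 2.51 ± 0.280 and 1.99 ± 0.574 (SD, n = 3). Sample ranges of neighbors in this order did not overlap, except those of Cebpb and Cebpa. In differentiation Ctrl cells Cebpb was first at 15.7 ± 2.74 FPKM, followed by Cebpz at 8.18 ± 0.263, Cebpd at 7.95 ± 0.512, Cebpg at 5.02 ± 0.393 and Cebpa at 0.870 ± 0.108. There, only the ranges of Cebpz and Cebpd overlapped.

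Between the conditions, the family therefore split in its levels. In Ctrl cells the mean FPKM under differentiation was 6.24 times the proliferating mean for Cebpb and 1.92 times for Cebpd, whereas for Cebpa the proliferating mean was 2.29 times the differentiation mean. Cebpg and Cebpz differed less, at 0.764 and 0.827 times the proliferating mean. In NAD+ cells the same ratios were 4.52 for Cebpb, 3.65 for Cebpd, 0.627 for Cebpg and 0.70 for Cebpz, and the proliferating mean of Cebpa was 4.59 times its differentiation mean. The conditions came in separate tables that may have been normalized separately, so these ratios were not tested.

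The share of each bZIP gene in the summed FPKM of Cebpa, Cebpb, Cebpd and Cebpg does not depend on the scale of a library. Cebpa made up 11.2% to 15.4% of this sum in proliferating Ctrl samples, 19.0% to 21.2% in proliferating NAD+ samples, 2.71% to 3.10% in differentiation Ctrl samples and 2.12% to 2.16% in differentiation NAD+ samples. No 2 of these 4 ranges overlapped. A share also moves when the other members of the sum change. Under differentiation, mean Cebpa was 0.870 FPKM in Ctrl and 0.873 FPKM with NAD+, while the summed FPKM had means of 29.5 and 40.9. Cebpg, the member without an activation domain, held the largest mean share in proliferating Ctrl and NAD+ cells (43.2% and 39.0%), and Cebpb held it under differentiation without and with NAD+ (52.8% and 51.2%). The share of Cebpd lay between 24.7% and 29.0% in proliferating Ctrl samples and between 17.6% and 20.2% with NAD+, and its differentiation ranges, 25.1% to 29.5% in Ctrl and 29.1% to 41.0% with NAD+, overlapped. In proliferating cells the FPKM values of Cebpd overlapped between Ctrl and NAD+ (means 4.15 and 3.80), while the summed FPKM had means of 15.2 and 20.4.

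**Figure D2:**
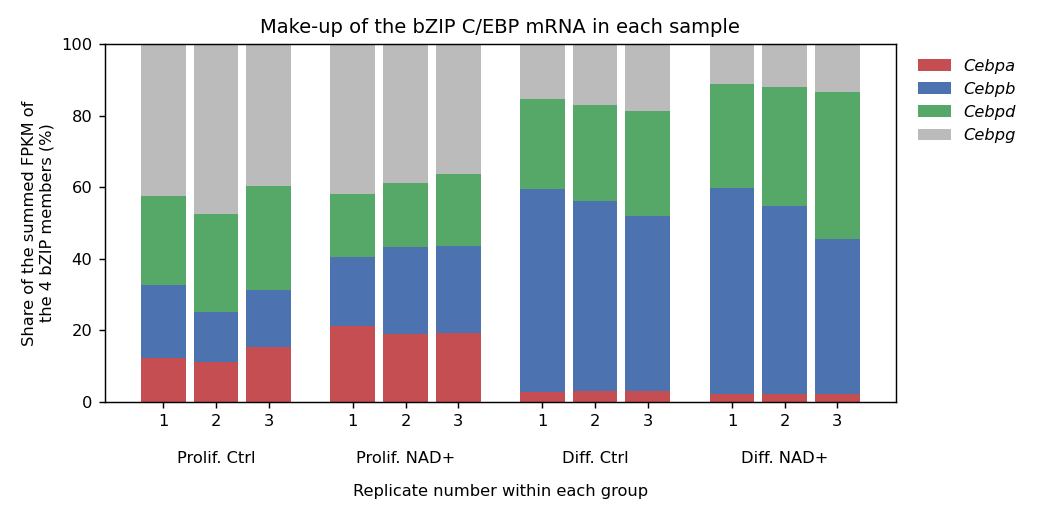
Stacked bars giving the share (%) of Cebpa, Cebpb, Cebpd and Cebpg in their summed FPKM for each of the 12 samples. Cebpa took 11.2% to 21.2% of the sum in proliferating samples and 2.12% to 3.10% under differentiation conditions, where Cebpb took 43.5% to 57.6%.

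To examine the effect of NAD+ on the family in proliferating cells, NAD+ samples were compared with Ctrl samples by limma on log2(FPKM + 0.1), a scale that understates the change of low genes, with Benjamini-Hochberg adjustment over all 18597 genes tested. Cebpa was at 1.59, 1.74 and 2.65 FPKM in the 3 Ctrl samples and at 3.57, 4.29 and 4.16 FPKM in the 3 NAD+ samples. All NAD+ samples were above all Ctrl samples. The mean was 2.01-fold higher with NAD+, a log2 difference of 1.00 (SE 0.207, 95% interval 0.508 to 1.49, limma unadjusted p = 0.00207, adjusted p = 0.120). Cebpa thus did not pass the adjusted test. It met the cut-offs of the study's rule for differentially expressed genes, an unadjusted p under 0.05 with more than a 2-fold change of the mean. The p-value here came from limma and not from the authors' own comparison. Used in this way, the rule took more genes in the main fit than the study reports, in both conditions. The study itself reports no effect of NAD+ on this gene, spelled Cepba there, without naming a condition or assay. The ratio of Cebpa stood just over the 2-fold limit. Cebpa no longer met the rule without Ctrl replicate 1 (log2 difference 0.86), Ctrl replicate 2 (0.93), NAD+ replicate 2 (0.95) or NAD+ replicate 3 (0.97), or after median-ratio scaling of the libraries (0.94). After quantile normalization the log2 difference was 0.90. The ratio for the rule was still taken from the unnormalized FPKM values there, so that setting did not test the 2-fold limit.

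Cebpb was at 2.63, 2.19 and 2.71 FPKM in proliferating Ctrl samples and at 3.25, 5.52 and 5.27 FPKM with NAD+. The groups did not overlap either, with NAD+ replicate 1 closest to the Ctrl samples. The log2 difference was 0.84 (SE 0.221, 95% interval 0.316 to 1.37, limma adjusted p = 0.172), a 1.86-fold higher mean that fell short of the study's 2-fold rule except without NAD+ replicate 1 (1.08). An exact two-sided permutation test gave p = 0.1 for Cebpa and for Cebpb, the smallest value that 3 against 3 samples allow.

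The other members differed less in proliferating cells. Cebpd was at 3.18, 4.27 and 4.99 FPKM in Ctrl and 2.97, 4.03 and 4.39 with NAD+, so the groups overlapped almost wholly. Its log2 difference was -0.12 (95% interval -0.63 to 0.39, limma adjusted p = 0.820), and that of Cebpz, at 8.16, 10.93 and 10.61 FPKM against 9.12, 10.97 and 11.76, was 0.10 (95% interval -0.26 to 0.46, limma adjusted p = 0.771). Cebpg was at 5.48, 7.40 and 6.83 FPKM in Ctrl and 7.05, 8.78 and 7.87 with NAD+, again overlapping, with a log2 difference of 0.27 (95% interval -0.077 to 0.612, limma adjusted p = 0.419). By the adjusted limma test 0 of the 5 members passed, where 0.145% of all tested genes did, and 2 of 5, both higher, had an unadjusted p under 0.05 (15.4% of all genes, 9.35% higher with NAD+). The study's rule took 1 of 5 (3.01% of all genes, 1.6% higher with NAD+), and 2 of 5 had NAD+ samples all above the Ctrl samples (15.5% of all genes).

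Under differentiation conditions, Cebpd was the member that rose with NAD+. It was at 7.78, 8.53 and 7.55 FPKM in the Ctrl samples and at 13.42, 13.74 and 14.43 FPKM in the NAD+ samples. The groups stood far apart, with no sample in between. The mean was 1.74-fold higher, a log2 difference of 0.80 (SE 0.0684, 95% interval 0.631 to 0.960, limma adjusted p = 0.00494 over 19611 genes tested), and the exact permutation p was at its minimum of 0.1. Cebpd passed the adjusted test in all 8 other settings tried and in all 6 fits without 1 sample. Its ratio was under the 2-fold limit of the study's rule in the main fit and in all 14 of these.

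Cebpa, in contrast, was at 0.84, 0.99 and 0.78 FPKM in differentiation Ctrl samples and at 0.98, 0.89 and 0.75 FPKM with NAD+. The groups overlapped wholly, with means of 0.870 ± 0.108 and 0.873 ± 0.116 (SD, n = 3). The log2 difference was 0.0038 (limma adjusted p = 0.993), and its 95% interval of -0.40 to 0.41 was wide against a level below 1 FPKM. Cebpb was at 17.53, 16.93 and 12.51 FPKM in Ctrl and at 26.58, 21.60 and 15.32 FPKM with NAD+, where the lowest NAD+ sample lay below 2 of the Ctrl samples. Its log2 difference of 0.41 did not pass (SE 0.222, 95% interval -0.12 to 0.95, limma adjusted p = 0.318).

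Cebpg did not separate by treatment under differentiation conditions, with 4.80, 5.47 and 4.78 FPKM in Ctrl and 5.19, 4.93 and 4.73 FPKM with NAD+ (log2 difference -0.02, 95% interval -0.22 to 0.19, limma adjusted p = 0.928). The sign of this difference turned after median-ratio scaling (0.065) and quantile normalization (0.071). Cebpz was at 8.32, 8.35 and 7.88 FPKM in Ctrl and 7.52, 7.55 and 7.21 FPKM with NAD+, with all NAD+ samples lower but a log2 difference of only -0.14 (SE 0.0597, 95% interval -0.28 to 0.0053, limma adjusted p = 0.221). In all, 1 of 5 members passed the adjusted test against 6.92% of all tested genes, of which 2.27% were higher and 4.65% lower with NAD+. At an unadjusted p under 0.05 it was also 1 of 5 (24.2% of all genes), and by the study's rule 0 of 5 (4.05% of all genes). All NAD+ samples were higher for 1 member, as for 9.68% of all genes, and lower for 1 member, as for 21.1% of all genes.

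**Figure D3:**
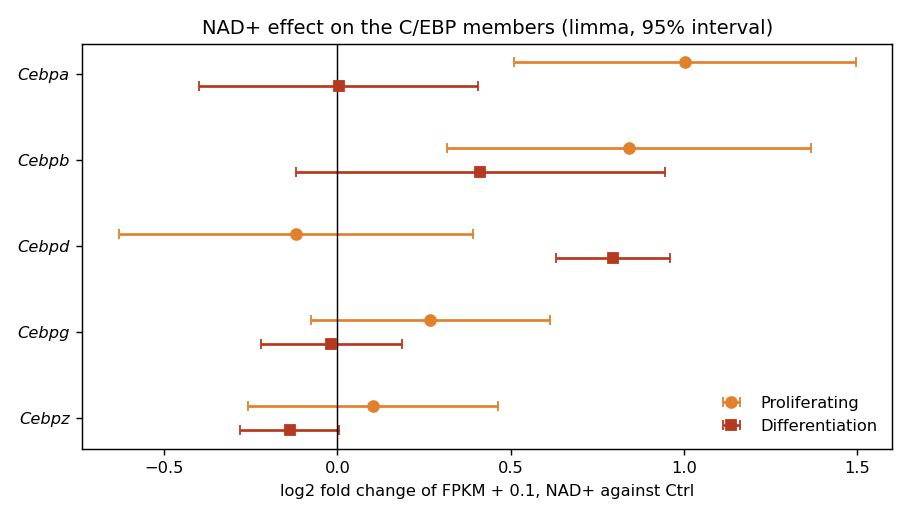
Difference between NAD+ and Ctrl in log2(FPKM + 0.1) for the 5 C/EBP genes in each condition, with 95% intervals from limma (3 against 3 samples). The intervals of Cebpa and Cebpb lay above 0 in proliferating cells (1.00 and 0.84), and that of Cebpd under differentiation conditions (0.80).

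The difference between the effects in the 2 conditions was tested itself, by a contrast in a limma fit of all 12 samples in which a scale factor between the tables drops out. The effect of NAD+ on Cebpa was lower under differentiation by 1.00 on the log2 scale (difference -1.0, SE 0.270, 95% interval -1.59 to -0.40, unadjusted p = 0.00362, limma adjusted p = 0.127). For Cebpd it was higher under differentiation by 0.91 (SE 0.236, 95% interval 0.393 to 1.44, unadjusted p = 0.00271, limma adjusted p = 0.118). Neither passed the adjusted test, and the difference of Cebpd passed without proliferating Ctrl replicate 1, the library that stood apart (1.09, limma adjusted p = 0.0420), and after quantile normalization (1.12, limma adjusted p = 0.0451). Cebpb (-0.43), Cebpg (-0.28) and Cebpz (-0.24) had limma adjusted p-values of 0.557, 0.444 and 0.510. By this test 0 of 5 members passed (0.467% of all genes did), and 2 of 5 had an unadjusted p under 0.05 (15.5% of all genes).

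Cebpa was then set against each paralog within the same sample, as the log2 ratio of the 2 FPKM values. In proliferating cells the mean log2 ratio of Cebpa to Cebpd was -1.07 ± 0.200 (SD, n = 3) in Ctrl and 0.093 ± 0.172 with NAD+, so Cebpa went from below Cebpd to about its level. The ratios to Cebpg (-1.75 to -0.98) and to Cebpz (-2.34 to -1.40) were also higher in every NAD+ sample than in any Ctrl sample, while the ratio to Cebpb (-0.36 ± 0.348 and -0.19 ± 0.282) overlapped between the groups. Under differentiation, Cebpa to Cebpd was -3.20 ± 0.0848 in Ctrl and -4.00 ± 0.249 with NAD+, without overlap, and the other 3 ratios overlapped. The 4 ratios whose groups did not overlap each had an exact two-sided permutation p of 0.1, the minimum for this design, and an adjusted p of 0.2 over the 8 ratios compared, so none could pass.

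**Figure D4:**
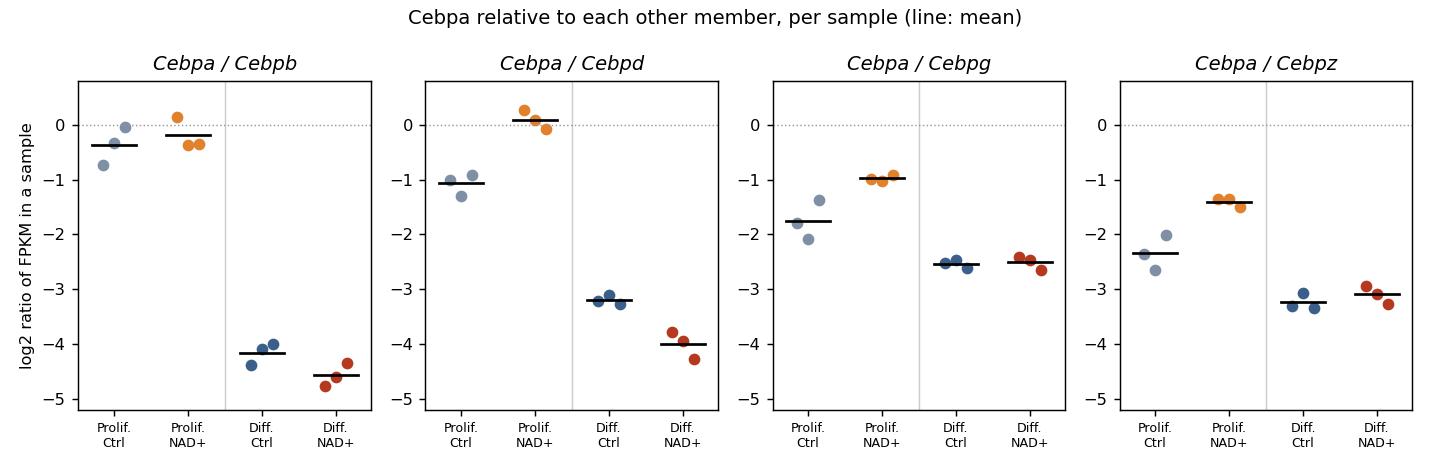
Log2 ratio of Cebpa FPKM to that of each paralog within each of the 12 samples, by group, with group means. The ratio of Cebpa to Cebpd had group means of -1.07 and 0.093 in proliferating Ctrl and NAD+ samples, and of -3.20 and -4.00 under differentiation conditions.

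Of the bZIP C/EBP genes outside the 5, Cebpe, which acts late in granulocyte maturation, was listed at 0 in all 12 samples. Ddit3, the stress-induced partner known as CHOP, had means of 8.18 ± 1.77 and 7.79 ± 0.992 FPKM in proliferating Ctrl and NAD+ cells and 9.74 ± 0.559 and 10.2 ± 0.494 FPKM under differentiation (SD, n = 3). Neither difference passed, with log2 differences of -0.05 (limma adjusted p = 0.909) and 0.06 (0.646). Of 13 listed dimer partners and related bZIP genes, 11 were tested in each condition. In proliferating cells 0 passed the adjusted limma test (0.145% of all genes did), and 4 had an unadjusted p under 0.05 (15.4% of all genes). Among these 4, Batf3 had a log2 difference of -1.63 (limma adjusted p = 0.249) at a mean of 0.255 FPKM and met the study's rule.

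Under differentiation 1 of these 11 partners rose and 2 fell, beside 2.27% and 4.65% of all genes tested. Fos, an AP-1 subunit, went from 11.37, 11.05 and 12.14 FPKM to 17.45, 18.67 and 19.68 FPKM with NAD+ (log2 difference 0.69, limma adjusted p = 0.00616). Atf4, the amino acid response factor with which C/EBPγ pairs, went from 25.92, 25.56 and 23.17 FPKM to 17.62, 17.34 and 16.71 FPKM (-0.53, limma adjusted p = 0.00869). Batf3, a dendritic cell factor, went from 2.79, 3.40 and 3.26 FPKM to 1.41, 1.29 and 1.36 FPKM (-1.16, limma adjusted p = 0.00613).

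Among 30 listed inducers and negative regulators of C/EBPs (27 tested in each condition), the 3 genes that passed under differentiation all encode cytokine receptor chains and rose (2.27% of all genes tested did), and none fell. Il6st, the gp130 subunit shared by IL-6 family receptors, went from 40.88, 43.74 and 42.76 FPKM to 65.52, 73.68 and 76.16 FPKM (log2 difference 0.75, limma adjusted p = 0.00494). Osmr, the oncostatin M receptor, went from 2.63, 2.36 and 2.72 FPKM to 4.99, 4.80 and 5.68 FPKM (0.98, limma adjusted p = 0.00674), and Il6ra differed by 1.36 (limma adjusted p = 0.0180). In all 3 genes every NAD+ sample was above every Ctrl sample. Stat3, which relays these receptors, had a log2 difference of 0.29 that did not pass (limma adjusted p = 0.0953), nor did that of Socs3, its feedback inhibitor (0.30, limma adjusted p = 0.303). In proliferating cells 0 of the 27 passed (0.145% of all genes did), and 5 had an unadjusted p under 0.05 (15.4% of all genes). Il6ra differed by 1.31 there as well (limma adjusted p = 0.110), at a mean of 0.288 FPKM, and met the study's rule.

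Of 26 listed acute-phase and inflammatory genes with known C/EBP sites, 17 were tested under differentiation, of which 5 rose with NAD+ and 0 fell (2.27% of all genes tested rose). The median log2 difference of these 17 was 0.30, beside -0.08 over all genes tested. Lcn2, an iron-carrier-binding lipocalin, went from 21.65 to 27.59 FPKM in Ctrl samples to 172.91 to 178.35 FPKM with NAD+ (2.82, limma adjusted p = 0.000238), and complement C3 from 81.00 to 90.91 FPKM to 425.08 to 435.63 FPKM (2.34, limma adjusted p = 6.47e-05). Steap4, a metalloreductase, differed by 2.39 (limma adjusted p = 0.00231), the chemokine Ccl2 by 2.06 (0.0304) and Cp, ceruloplasmin, by 1.26 (0.00494). This list was drawn up with the rise of some of its genes already known, so its count is no independent evidence of a direction. In proliferating cells 12 of the 26 were tested and 0 passed (0.145% of all genes did), with 1 at an unadjusted p under 0.05 (15.4% of all genes). That 1 was Ccl2 (1.38, limma adjusted p = 0.290), at a mean of 0.735 FPKM, which met the study's rule.

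The genes that C/EBPα is known to activate in other tissues were mostly low. Of 20 adipocyte and hepatocyte genes, 8 were tested in proliferating cells and 0 passed (0.145% of all genes did), with 1 at an unadjusted p under 0.05 (15.4%). The median log2 difference of these 8 was -0.34, beside 0.07 over all genes tested. Low, variable genes were among the 8, such as Alb (mean 0.575 FPKM, -1.72, SE 1.35). Under differentiation 9 were tested, with a median of -0.63 beside -0.08 over all genes tested. Of these, 1, the fatty acid transporter Cd36, fell (4.65% of all genes did), from 6.31, 7.40 and 8.96 FPKM to 2.96, 2.63 and 3.52 FPKM (log2 difference -1.28, limma adjusted p = 0.0105). Of 14 myeloid genes, 4 were tested in each condition and 0 passed in either. An unadjusted p under 0.05 was held by 0, beside 15.4% of all genes in proliferating cells and 24.2% under differentiation. Elane, Ltf, Ctsg and Ly6c2, all expressed by granulocytes or monocytes, were listed at 0 in all 12 samples.

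All 20 listed amino acid and stress genes of ATF4 and C/EBPγ were tested in both conditions. In proliferating cells 0 passed (0.145% of all genes did) and 5 had an unadjusted p under 0.05 (15.4% of all genes). Under differentiation 2 of 20 rose and 6 fell, beside 2.27% and 4.65% of all genes tested, and 13 of 20 had an unadjusted p under 0.05 (24.2% of all genes). Those that rose encode the 2 chains of the cystine transporter, Slc7a11 (log2 difference 0.95, limma adjusted p = 0.0106) and Slc3a2 (0.35). Phgdh, the first enzyme of serine synthesis, went from 90.32, 90.06 and 100.75 FPKM to 51.79, 53.18 and 45.96 FPKM (-0.90, limma adjusted p = 0.00457), and Ddit4, an inhibitor of mTORC1, and Mthfd2, a mitochondrial folate enzyme, differed by -0.82 and -0.75. Of these 20 genes 12 did not pass.

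For Cebpz, 20 genes of the CBF/Mak21 family and nucleolar ribosome assembly were listed, all of them tested. In proliferating cells 0 passed (0.145% of all genes did), and 2 had an unadjusted p under 0.05 (15.4% of all genes). Under differentiation 5 of 20 fell and 0 rose, beside 4.65% and 2.27% of all genes tested, and 13 of 20 had an unadjusted p under 0.05 (24.2% of all genes). Those that fell included Brix1 (log2 difference -0.37, limma adjusted p = 0.0349), Rrs1 (-0.36), Pes1 (-0.33) and Noc2l (-0.30), and the median of the 20 was -0.29 beside -0.08 over all genes. Of 8 NF-Y and NFI genes, the other main CCAAT- and related-motif binders, 0 passed in either condition. At an unadjusted p under 0.05 there were 3 in proliferating and 4 in differentiation cells (15.4% and 24.2% of all genes). Under differentiation, 32.8% of all genes called were higher with NAD+, a share that became 53.5% after median-ratio scaling and 49.96% after quantile normalization.

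**Figure D5:**
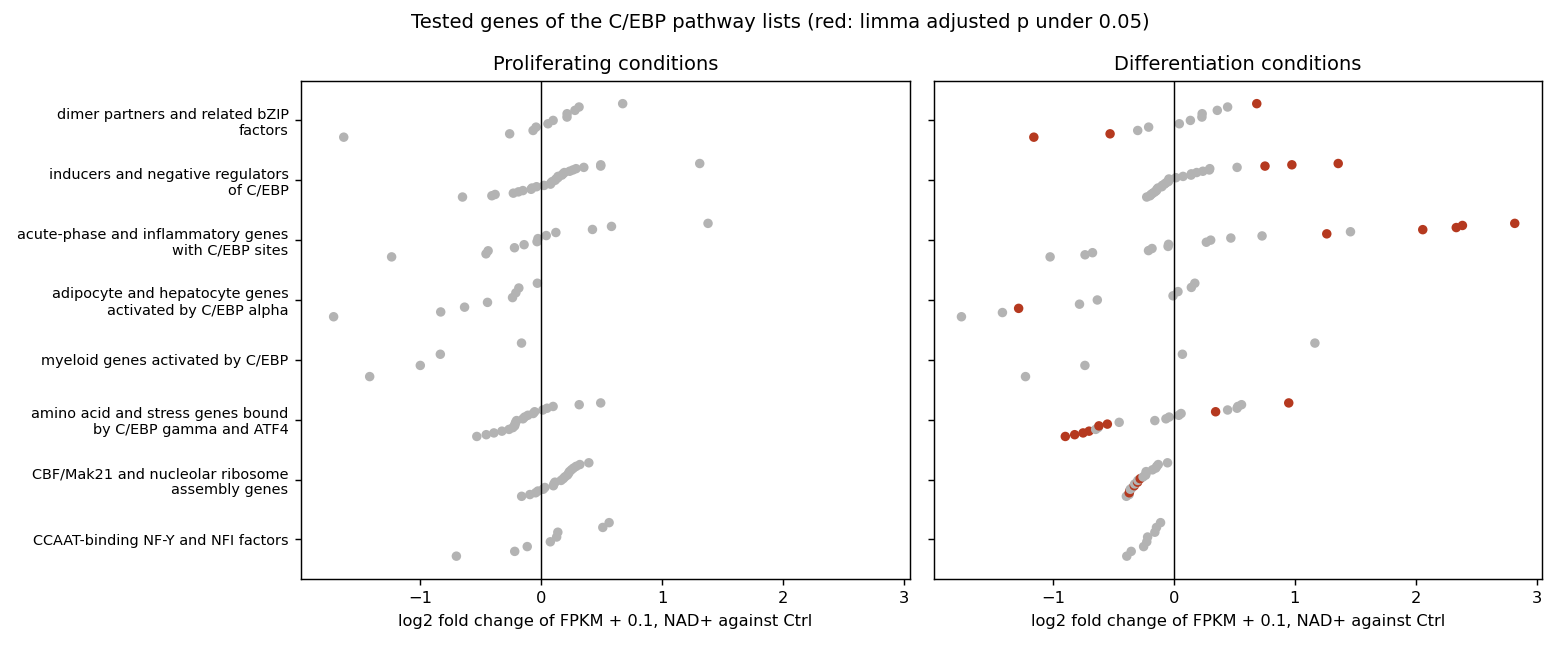
Log2 difference between NAD+ and Ctrl for the tested genes of each list around the C/EBP family, in each condition, with genes past an adjusted limma p of 0.05 marked. No listed gene passed in proliferating cells, where 0.145% of all genes tested did. Under differentiation, where 6.92% of all genes passed, the acute-phase list had 5 that rose and the ribosome assembly list 5 that fell.

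The genes whose profiles were most like those of the members were taken by Pearson's r of log2(FPKM + 0.1) over the 12 samples, among 11647 or 11648 other genes. Cebpa was closest to Foxc1 (r = 0.985), a forkhead factor of mesenchyme and vessels, then to Tigd2 (0.983) and Gpalpp1 (0.982). Cebpb was closest to the cAMP-responsive clock gene Per1 (r = 0.990), then to B3galt5 and Nptxr (both 0.984), and Cebpd to Cp (0.974), Fbxo31 and Fbln7 (both 0.969). Among the members, Cebpb and Cebpd varied together (r = 0.895), as did Cebpa and Cebpg (r = 0.942), while Cebpa ran opposite to Cebpb (r = -0.72) and to Cebpd (r = -0.79). The samples fall into 2 culture conditions, which set most of these values, so they are descriptions without a test.

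Marker lists of other cells were read beside these results. Of 16 microglia and macrophage markers, 4 were tested in proliferating cells. Of these, 0 passed the adjusted limma test (0.145% of all genes did) and 2 had an unadjusted p under 0.05 (15.4% of all genes). Under differentiation 3 were tested, of which 1, Cd68, rose (2.27% of all genes did). Cd68, a lysosomal marker of macrophages and microglia, lay between 0.77 and 1.16 FPKM in proliferating Ctrl and between 2.83 and 6.89 FPKM with NAD+ (log2 difference 1.91, limma adjusted p = 0.103), the same direction as Cebpa. Under differentiation it rose from 1.34 to 1.92 FPKM in Ctrl to 3.30 to 3.91 FPKM with NAD+ (1.13, limma adjusted p = 0.0126), the same direction as Cebpd. Fcer1g, an Fc receptor subunit, differed in the other direction in both conditions without passing (-0.96, limma adjusted p = 0.515, and -0.61, limma adjusted p = 0.295). The defining microglial markers Cx3cr1 (at most 0.03 FPKM), Aif1 (0.07), Spi1 (0.08) and Tmem119 (0.09) were near 0 in all 12 samples. In proliferating cells the 11 stem and progenitor markers summed to 2657 to 2903 FPKM in Ctrl and 1641 to 2153 with NAD+. The 10 oligodendrocyte lineage markers summed to 1308 to 1428 and 1053 to 1082. However, 0 of either list passed the adjusted limma test, and 5 and 4 had an unadjusted p under 0.05 (15.4% of all genes). Most of the difference in the stem cell sum was in 1 gene, Fabp7, a fatty acid carrier of radial glia, at 2034.33, 2031.69 and 2253.74 FPKM in Ctrl and 1030.35, 1403.02 and 1516.22 FPKM with NAD+ (log2 difference -0.70, limma adjusted p = 0.157). The median log2 difference of the 11 was -0.060, and Nes (0.27) and Sox2 (-0.05) did not pass. The 10 astrocyte markers summed to 1712 to 1836 FPKM in differentiation Ctrl and 2073 to 2181 with NAD+ (4 rose, 2 fell, beside 2.27% and 4.65% of all genes). Gfap, the highest of the 10 (mean 786 FPKM), had a log2 difference of 0.72, while Aldh1l1 (-0.61) and Aldoc (-0.35) fell. The median of the 10 was -0.071, beside -0.085 over all genes tested. The part of these marker shifts in the values of Cebpa and Cebpd was not tested. Endothelial markers summed to at most 0.97 FPKM and pericyte and fibroblast markers to at most 1.68 FPKM in all 12 samples.

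Some members share exonic bases with genes on the other strand, and since the counting is not stated to use strand, reads there cannot be told apart. Cebpb shares 312 bases with Tmem189, which had means of 14.04, 12.48, 13.03 and 11.61 FPKM in proliferating Ctrl, proliferating NAD+, differentiation Ctrl and differentiation NAD+ and did not follow the pattern of Cebpb. Cebpd shares 562 bases with Spidr. In proliferating Ctrl and NAD+ cells Spidr had means of 4.54 and 4.87 FPKM, above those of Cebpd (4.15 and 3.80). Under differentiation its means were 1.58 and 1.69 FPKM without and with NAD+ (limma adjusted p = 0.674). Cebpz shares 171 bases with Cebpzos, whose means there were 6.72 and 9.11 FPKM, the opposite direction to Cebpz (log2 difference 0.43, limma adjusted p = 0.0817).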

How the data were processed

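RNA-seq was available for 12 samples. The authors aligned the reads with Hisat2 v2.0.5 (genome mm10), kept those with a unique position, counted them with FeatureCounts v2.0.1 and deposited FPKM values for proliferating and for differentiation samples in separate tables. The program that gave the FPKM values is not given in the sources used here. Per the file headers, the tables also hold fold changes, p-values and q-values of the authors' own comparison, which were not used.

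The deposited FPKM values were not rescaled and entered the fits as log2(FPKM + 0.1). In each condition, NAD+ was compared with Ctrl over all genes averaging 0.1 FPKM or more across its 6 samples, using limma 3.58.1 (R 4.3.3) with a variance trend, two-sided p-values and Benjamini-Hochberg adjustment. The difference of effects was a contrast over all 12 samples. For the study's rule, its cut-offs were applied to the limma p-values, and FPKM values of 0 were set to 0.0001 before ratios of means were taken. Single values and within-sample ratios were compared by exact permutation tests. The fit was tested on simulated data.

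Depth is unknown. Gene positions came from GENCODE M21, in which 55141 of 55401 gene IDs were found, and promoters from RefSeq. The members and gene lists were chosen with earlier results of these data known. Genes named beside the members were those that share exons with them, up to 4 per list with an adjusted p under 0.05, a mean FPKM of at least 1 and the largest change, and the 3 with the most similar profile for Cebpa, Cebpb and Cebpd. Stat3, Socs3, Slc3a2, Alb, the myeloid genes at 0 and some marker genes such as Fabp7, Aldh1l1 and Fcer1g were named outside that rule, after their values were seen. The summed level of the microglia and macrophage markers is not reported here. Alternatives were another pseudocount (1 or 0.01), no filter or a minimum of 1 FPKM, no moderation of the variance, median-ratio scaling, quantile normalization, a replicate block and leaving out each sample. Figures were made with Python 3.11.15 and matplotlib 3.10.9.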

Additional observations from a re-analysis of the deposited data

Results flagged for a closer look

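The members, Cebpe, Ddit3 and the genes taken from the pathway lists by the naming rule were screened with the limma contrast. Of these, 3 had an effect of NAD+ that differed between the conditions, all of them higher under differentiation and none a C/EBP gene. Other genes named in the report, such as the cell type markers, were not part of this screen. The difference of effects, differentiation minus proliferating on the log2(FPKM + 0.1) scale, was 3.01 for Lcn2, 2.79 for C3 and 1.30 for Cp (limma adjusted p = 0.0221). Lcn2 and C3 were at most 0.37 FPKM in every proliferating sample, so their effect there rests on values near 0. Cp, the gene with the profile most like that of Cebpd, was at 3.79 to 5.34 FPKM in proliferating samples, at 11.18 to 14.47 FPKM in differentiation Ctrl and at 28.82 to 34.33 FPKM with NAD+.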

How the results depend on the processing

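The rise of Cebpd under differentiation passed the adjusted limma test in 8 of 8 settings (limma adjusted p from 0.00358 to 0.0318). Cebpa in proliferating cells kept its direction in all of them, with limma adjusted p from 0.0985 to 0.210, and from 0.134 to 0.369 without 1 sample. The number of genes called in proliferating cells was 27, and 9 with no filter, 75 with a minimum of 1 FPKM, 60 with quantile normalization, 0 under the replicate block, 0 without moderation and 0 to 36 without 1 sample. By the study's rule it was 559, and 951 with no filter or 122 with a minimum of 1 FPKM. Under differentiation 1357 genes were called, and 758 with the replicate block, 594 without moderation and 328 to 719 without 1 sample, and the study's rule gave 795, or 1211 with no filter and 224 with the higher minimum, at which Cebpa was not tested.

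The NAD+ difference of Cebpg under differentiation turned to 0.065 after median-ratio scaling and 0.071 after quantile normalization. Small differences changed sign without 1 sample, with ranges of -0.028 to 0.208 for Cebpz and -0.29 to 0.043 for Cebpd in proliferating cells, -0.075 to 0.098 for Cebpa and -0.051 to 0.045 for Cebpg under differentiation, -0.0077 to 0.339 for Cebpa relative to Cebpb in proliferating cells and -0.031 to 0.095 for Cebpa relative to Cebpg under differentiation. The difference of effects of Cebpd ranged from 0.752 to 1.09 without 1 sample and passed after quantile normalization (1.12). With the replicate block it was 0.91 and passed (limma adjusted p = 0.0490). Same-numbered samples correlated around their group means at 0.111, 0.0215 and 0.0529 in proliferating and 0.0410, 0.0432 and 0.0257 in differentiation samples, and since not every value was over 0.1, the numbers were not taken as pairs. However, 10 of 12 samples correlated best with their own number, a hint from the data and not from the design. The block changed no other call of a member. For Cebpb under differentiation (log2 difference 0.41), the SE was 0.222 in the main fit and 0.0779 with the block. Its limma adjusted p was 0.318 and 0.0726, so it passed in neither. The cause of these changes was not tested. Depth is unknown and cannot be set against any of them.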

Other observations

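A short antisense gene at Cebpa, Gm45091, which shares 51 exonic bases with it, was at 0.68, 0.27 and 0.17 FPKM in the differentiation Ctrl group, while each of the 3 NAD+ samples lists it at 0 (limma adjusted p = 0.0439). Cebpa itself did not separate by treatment in those samples. In proliferating samples Gm45091 was at 0.06, 0.19 and 0.33 FPKM in Ctrl and 0.26, 0.17 and 0.10 FPKM with NAD+, and the groups overlapped. Such values are near the lowest that the tables can hold, and strand was not stated to be used.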
